A study of Oryza sativa Indica Group with 12 samples.

Results

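Anthers of rice that carried trinucleate pollen (TPA) were compared with anthers undergoing meiosis (MA), to describe what separates the meiotic anther, with its active tapetum, from the mature one. The comparison was set by the labels, and it used 6 of the 12 arrays of the series, 3 of MA and 3 of TPA. The other 6 arrays, 3 of pre-meiotic anthers (PMA) and 3 of anthers with single-celled pollen (SCP), entered the estimate of the spread, and their levels are given beside some genes. All plants were of the indica variety IR64 and untreated as far as the labels say. Each array held RNA of anthers bulked from several plants, staged per the study by floret size and by the nuclei of 1 stained anther in each floret. The labels give anther lengths of 500 to 850 µm for MA and 2000 to 2500 µm for TPA. The study states that a different person carried out the array work on MA, so that person and stage cannot be told apart in this comparison. RNA came from whole anthers, in which fewer cells of a type and less RNA per cell cannot be told apart.

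At meiosis the rice anther holds pollen mother cells, in which homologous chromosomes pair, recombine and part, enclosed by wall layers of which the innermost is the tapetum. The tapetum feeds the meiocytes, makes lipid and phenolic precursors of sporopollenin, the polymer of the outer pollen wall, and then breaks down through programmed cell death. By pollen maturity the tapetum has largely broken down, and each pollen grain holds a vegetative cell and a pair of sperm cells, with starch and stored transcripts that serve germination and tube growth.

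The values were GC-RMA signals on the linear scale, a background-corrected measure of probe set brightness, and a probe set was taken as above background in a stage with a mean over 10. The 3 MA arrays were nearly alike, with Pearson correlations across probe sets of 0.998 in each pair, and the TPA arrays less so, at 0.967 to 0.984. Between a MA and a TPA array the correlation was 0.782 to 0.799. The median SD of log2 values over the arrays of a stage was 0.10 in MA and 0.34 in TPA among probe sets above background. The upper quartile of the array values was 103 to 108 in MA and 64.2 to 72.7 in TPA, while 21 of 27 hybridization control probe sets had the higher mean in TPA (median log2 difference, TPA minus MA, 0.78). A scaling of the arrays to a common median over expressed probe sets moved TPA up against MA by 0.65 on the log2 scale, the direction in which the controls were already higher. Where this scaling turned the direction of a list, that is given with the list or in the account of the processing.

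Of 57258 rice probe sets, 4727 (8.26%) were called higher and 8973 (15.7%) lower in TPA than in MA by limma's moderated test, at an adjusted p of 0.005 or less and at least 2-fold. No called probe set had overlapping MA and TPA arrays. Such separation was common, since TPA lay wholly above MA in 31983 (55.9%) of all rice probe sets. It lay wholly below in 13911 (24.3%), so a lack of overlap alone sets no gene apart. Of the called probe sets 34.5% were thus higher in TPA. After quantile normalization the split was 5436 higher and 7414 lower (42.3% higher), and with arrays at a common median it was 8686 higher and 6557 lower (57.0% higher), so which direction held more calls depended on the scaling. The median log2 fold change, TPA minus MA, was 0.03 over all rice probe sets, most of which lay at the floor, and -0.47 over those above 10 in either stage. The counts of the gene lists below stand beside 2650 higher and 6022 lower of 17905 genes with 1 probe set each.

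As deposited, the falls were more numerous and the large rises went further. At 4-fold or more, 5615 called probe sets were lower and 3198 higher, at 16-fold or more the counts were nearly equal at 1512 and 1567, and at 256-fold or more 104 were lower and 501 higher. Of the 301 probe sets with a mean over 10000 in TPA, 236 had risen from MA, and 130 of them had been at or under 10 there. Of the 254 over 10000 in MA, 184 had fallen and 12 had reached 10 or less. None of the former had fallen and none of the latter had risen. Each set was chosen by its brightness in a stage that was then compared, which favoured this outcome. A call in the opposite direction needed a signal at least 2-fold brighter still in the other stage, so the lack of such calls shows little. By the counts at or under 10, the bright transcripts of TPA had often started from background, while few of those bright in MA ended there.

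**Figure D1:**
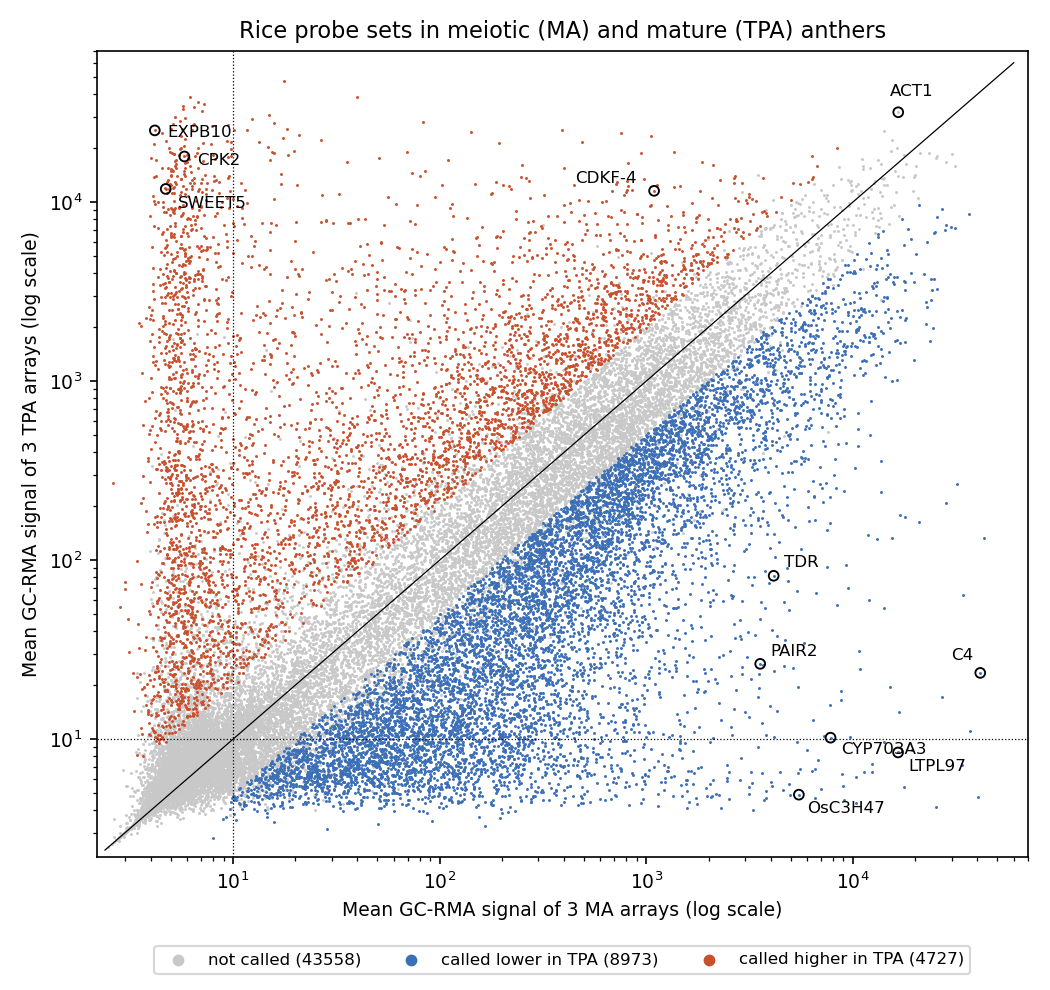
Mean GC-RMA signal of 57258 rice probe sets in the 3 MA arrays (x axis) and the 3 TPA arrays (y axis), both on log scales, with probe sets called higher in TPA in red (4727), called lower in blue (8973) and not called in grey (43558). The dotted lines mark the level of 10 and the solid line equality. A column of 1505 called probe sets at the left rose from 10 or less in MA to over 20 in TPA, and 1838 at the bottom fell from over 20 to 10 or less.

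Probe sets that were over 20 in one stage and at or under 10 in the other numbered 1505 for TPA and 1838 for MA, 31.8% of the rises and 20.5% of the falls. Their levels in the other stages differed. Of the 1505 for TPA, 1234 (82.0%) were at or under 10 in SCP as well. Of the 1838 for MA, 1488 (81.0%) were over 10 already in PMA and 1425 (77.5%) were still over 10 in SCP, and 200 were at or under 10 in both, that is, above background in MA alone. The median level of the first set in TPA was 289, and that of the second in MA was 71.5.

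Meiosis genes came first among the named groups. Of 30 measured, 21 were lower, 2 higher and 7 not called, with a median log2 fold change of -2.00. Their summed signal was 17035 to 17816 in the MA arrays and 4387 to 4734 in the TPA arrays. PAIR2, the chromosome axis protein needed for homologous pairing, gave 3477, 3679 and 3516 in MA and 29.8, 14.3 and 34.9 in TPA. No TPA array came near the lowest MA array, and the log2 fold change was -7.18 ± 0.54 (SE) with an adjusted p of 4.69e-06. ZEP1, the central element of the synaptonemal complex that holds paired chromosomes together, stood at 569.7, 694 and 633 in MA and at 6.2, 6.25 and 6.28 in TPA. This put ZEP1 at the floor in all TPA arrays, a fall of at least 63-fold from MA to the level of 10 (adjusted p 2.92e-07).

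The recombination genes fell with those of the axis. OsDMC1, the meiotic strand-exchange recombinase, fell from 457 ± 14 (SD, n = 3 here and below) to 23.1 ± 2.19, a log2 fold change of -4.31 ± 0.22 (adjusted p 4.01e-07). Its near-identical copy on another chromosome, DMC1-11, gave 361 and 10.3, and since probes may read both copies the pair is uncertain as separate genes. ZIP4, which acts in crossover formation, gave 755, 723 and 713 in MA and 67, 52.6 and 35.3 in TPA. PAIR3, an axis protein, fell from 122 to 6.17, and MSH5, a mismatch repair family protein of the crossover pathway, from 163 to 8.34. MRE11 and RAD50, which process DNA breaks in any cell, fell from 430.3 to 60.7 and from 117 to 16.8. SCC3, a cohesin subunit, fell from 2052 to 407 and remained above background in all TPA arrays.

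SPO11-1 and RFA1 ran the other way. SPO11-1 (LOC_Os03g54091, annotated OsTOP6A1), the topoisomerase-like protein that opens meiotic DNA breaks, gave 107, 113 and 102 in MA against 1237, 1025 and 635 in TPA, a rise of 3.12 ± 0.31 on the log2 scale (adjusted p 3.18e-05). Its level was 179 in PMA and 59.3 in SCP, by the 1 probe set that the study pairs with this locus. The name SPO11-1 rests on the reference annotation, since the study's figure label could not be matched to this locus with certainty. The study describes SPO11-1 and SPO11-2 as weakly expressed, with more transcript in PMA, MA and TPA. RFA1, annotated with the large subunit of the single-strand DNA binding protein RPA, gave 129, 205 and 179 in MA and 576, 626 and 542 in TPA (log2 fold change 1.79 ± 0.21, adjusted p 9.62e-05). For both genes every TPA array lay above every MA array. The 7 meiosis genes that were not called included OsMEL1, the germ-line argonaute, at 57.1 ± 7.63 in MA and 44.3 ± 28.5 in TPA, whose level was 7716 in PMA. They also included OsRAD21-4, the meiotic cohesin subunit, and OsSDS, a meiotic cyclin-like protein, both with means under 20 in MA, as well as HEI10, a crossover protein, at 150.1 and 96.2, and MER3, a helicase of the crossover pathway, at 41 and 115. MER3 passed as higher without TPA replicate 3 (log2 fold change 1.73, adjusted p 0.00035) and under both other scalings (log2 fold change 2.00 and 2.03).

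Of 917 probe sets in a list of genes with preferential expression in rice pollen mother cells, set against seedlings and tricellular pollen, 489 were lower, 30 higher and 398 not called (median log2 fold change -1.57). That list was itself defined in part against mature pollen, so that its fall was favoured by the choice and supports nothing further.

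Regulators of the tapetum fell from high levels. Of 10 regulators and receptors of tapetum development, 8 were lower, none was higher and 2 were not called, with a median log2 fold change of -3.66. The falls numbered 7 or 8 with 1 array left out. The call at LOC_Os07g36460 was lost without any 1 of the MA or TPA arrays (adjusted p 0.00558 to 0.00734). TIP2, a basic helix-loop-helix (bHLH) factor of early tapetum differentiation, gave 5559.7, 5562 and 6357 in MA and 25.8, 25.7 and 52 in TPA (log2 fold change -7.48 ± 0.38, adjusted p 3.49e-07). TDR, the bHLH factor that governs tapetum degeneration, gave 3855, 3711 and 4834 in MA and 92, 102 and 50.7 in TPA (-5.71 ± 0.35, adjusted p 1.09e-06). EAT1, a bHLH factor that acts downstream of TDR in tapetal cell death, gave 785, 898 and 935 in MA and 27.3, 7.3 and 6.76 in TPA (-6.30 ± 0.60, adjusted p 2.38e-05). In no case did the arrays of the stages overlap, and 1 TPA array of EAT1 stayed above background.

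The 3 bHLH genes did not all have their highest mean in the same stage. TIP2 stood at 488 in SCP, below its MA level, while TDR stood at 4311 and EAT1 at 8988 there, at or above their MA levels. OsMSP1, the receptor kinase that limits the number of cells entering the germ line, fell from 846 ± 15.5 to 48.5 ± 20.9, and its ligand OsTDL1A from 414 ± 14.3 to 66.8 ± 30.1. API5, an inhibitor of apoptosis that is needed for timely tapetum degeneration, fell from 5311 ± 436 to 358 ± 35.9. MTR1, a secreted fasciclin glycoprotein made by the male germ cells, fell from 783 ± 56.1 to 76.6 ± 29.3.

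GAMYB, the gibberellin-regulated factor that acts above the bHLH genes in the tapetum, was not among the falls. It gave 4415, 4254 and 4219 in MA and 2374, 1714 and 2525 in TPA, and although these arrays did not overlap and the adjusted p was 0.000435, its log2 fold change of -0.98 ± 0.14 stopped just short of the 2-fold limit. It passed as lower without TPA replicate 1 (-1.05) or replicate 3 (-1.09). PTC1, a late tapetum factor, was under 10 in both stages (8.28 and 9.1) and at 3201 in SCP.

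Enzymes of sporopollenin and wall lipids were the group with the lowest median. Of 7 measured, 6 were lower, none higher and 1 not called, at a median log2 fold change of -7.42, and their summed signal was 19459 to 20005 in MA and 693 to 1136 in TPA. CYP703A3, the P450 that hydroxylates fatty acids for the pollen wall, gave 7868, 7967 and 7535 in MA and 10, 10.1 and 10.4 in TPA. Its TPA arrays lay just above the background level, and the log2 fold change was -9.58 ± 0.08 (adjusted p 8.99e-13). Another cytochrome P450, at LOC_Os03g07250, fell from 3796 ± 118 to 10.6 ± 0.388 (-8.49 ± 0.32, adjusted p 4.09e-08).

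A pair of genes of the chalcone and stilbene synthase family, which in plants includes the polyketide synthases of sporopollenin, fell below background. LOC_Os10g34360 went from 1643 ± 119 to 6.61 ± 1.22, at least 164-fold, and LOC_Os07g22850 from 1544 ± 49.1 to 9.48 ± 3.4, at least 154-fold. KCS20, a fatty acid elongation enzyme, fell from 2096 ± 172 to 59.6 ± 52.6. The ABC transporter of the white-brown complex type at LOC_Os10g35180 was the member without a call. It gave 932, 862 and 881 in MA and 271, 279.6 and 51.9 in TPA, a wide range in TPA that lay wholly below MA (log2 fold change -2.50 ± 0.68, adjusted p 0.0154).

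Secreted proteins of the tapetum did not move as 1 group. Of 12 measured, 4 were lower, 3 higher and 5 not called, and the median log2 fold change of 0.09 lay close to that of all probe sets. The median was 0.74 with arrays at a common median and -0.63 without TPA replicate 3, so no direction can be given for the group. LTPL97, a lipid transfer-like protein, gave 14704, 16699 and 18203 in MA and 5.25, 14.9 and 5.08 in TPA, at least 1647-fold lower (adjusted p 9.02e-07), with 1 TPA array above background. C4, an anther gene outside the lists, showed the largest fall of any named gene with both means over 10, from 44299, 38068 and 41579 in MA to 16.8, 16.6 and 36.9 in TPA (log2 fold change -10.89 ± 0.55, adjusted p 3.07e-07). AP25, an aspartic protease that takes part in the death of tapetal cells, fell from 270.1 to 7.83, and LTP110-A, a lipid transfer protein, from 3849 to 424.

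RTS, named as a tapetum-specific gene of rice, was at the floor in MA (4.77, 4.76 and 4.78) and gave 4240.4, 4195 and 587 in TPA, at least 219-fold higher (adjusted p 3.78e-06). The third TPA array thus lay about an order below the other 2, and RTS was at the floor in PMA (4.79) and SCP (4.74) too. The study reports that quantitative PCR of selected genes, RTS among them, followed its arrays. By in situ hybridization it found another transcript in the tapetal layer of trinucleate-stage anthers and not in pollen. The cells that gave the RTS signal were not tested here. LTP and LTP-2, lipid transfer proteins, rose from 219 ± 16.5 to 1723 ± 983 and from 13 ± 4.19 to 262 ± 153. The call of LTP was lost without any 1 of the MA arrays or without TPA replicate 1 or 3 (adjusted p 0.0106 to 0.0128). RAFTIN1, a protein of the Ubisch bodies that carry sporopollenin, gave 337, 424 and 454 in MA and 128, 17 and 5.91 in TPA. Its TPA arrays spread so far that the log2 fold change of -4.10 ± 0.92 narrowly missed the call (adjusted p 0.00588), which it passed without TPA replicate 1 (adjusted p 4.5e-05). OsC6, a lipid transfer protein of the wall, was low in both stages (36.4 and 118, adjusted p 0.013) and at 31319 in SCP.

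**Figure D2:**
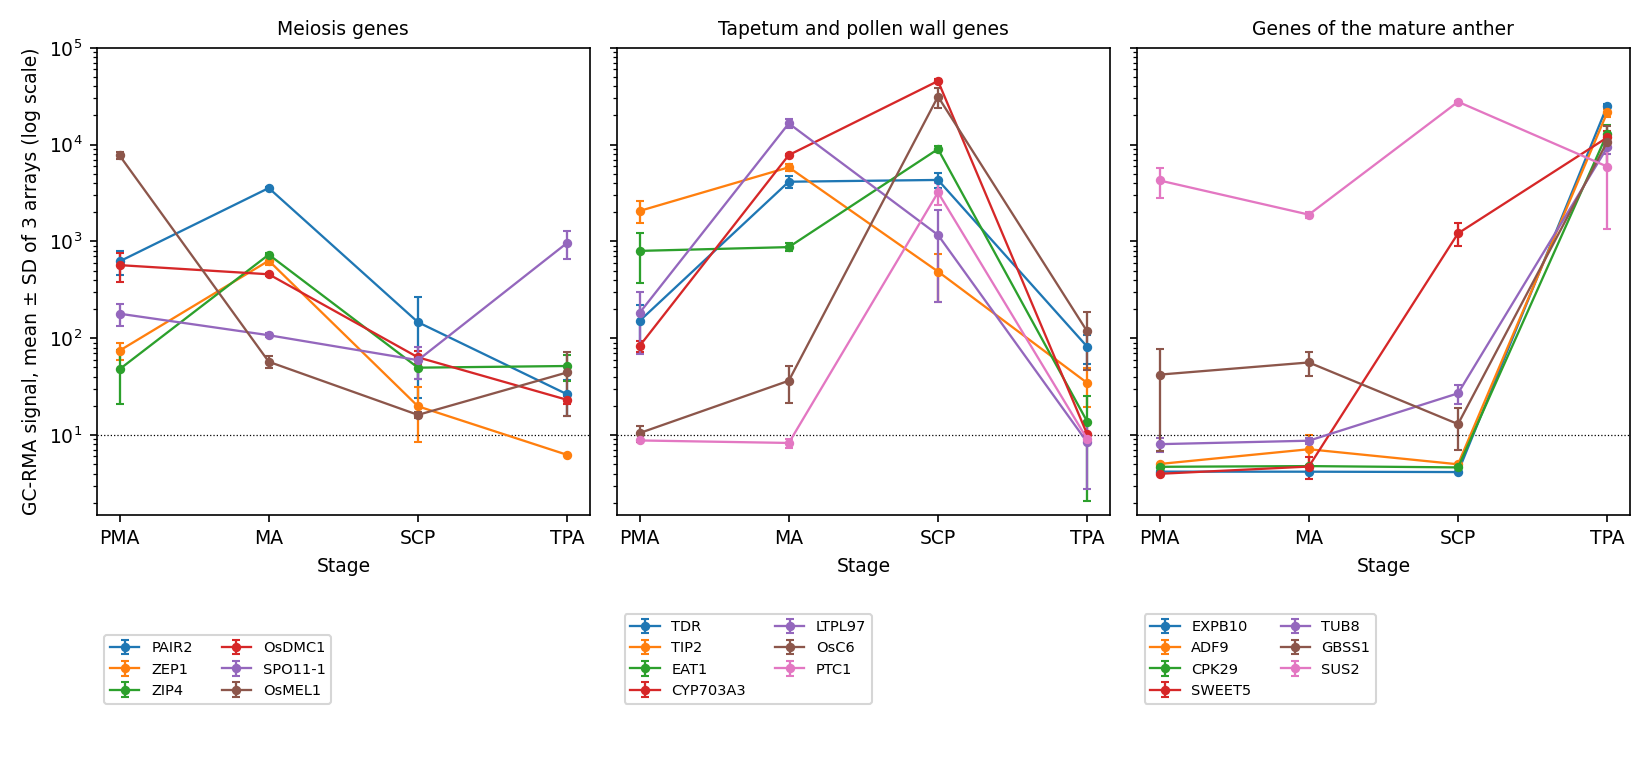
Mean GC-RMA signal ± SD of 3 arrays (y axis, log scale) in the 4 stages in order of development (x axis) for meiosis genes, tapetum and pollen wall genes, and genes of the mature anther, with the dotted line at 10. PAIR2 and ZEP1 peaked in MA, OsC6 and PTC1 were high in SCP and low in both MA and TPA, and EXPB10 and CPK29 were at the floor until TPA.

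Genes of cell division and DNA replication fell widely. Of 31 replication genes 21 were lower, 1 (RFA1) higher and 9 not called, with a median log2 fold change of -2.57. MCM2, a subunit of the replicative helicase, gave 395, 392 and 377 in MA and 12.6, 5.3 and 10 in TPA, at least 38.8-fold lower (adjusted p 3.62e-06). MCM3, MCM5, MCM6 and MCM7, further subunits, fell to means of 19.5, 22.6, 9.94 and 17.9, while MCM4 was not called at 120.2 and 61.8. PCNA, the sliding clamp of DNA polymerases, fell from 396 ± 13.4 to 39.9 ± 3.08. RFC4, of the clamp loader, fell from 527 ± 26.5 to 21.3 ± 6.87, and RPA14, the small subunit of RPA, was not called at 2429.6 ± 119 and 2822 ± 593.

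Of 77 cyclins, cyclin-dependent kinases (CDKs), their inhibitors and kinesins, 47 were lower, 6 higher and 24 not called (median log2 fold change -2.17). The mitotic B-type cyclins led the falls. CYCB2 at LOC_Os06g51110 gave 1149, 1372 and 1282 in MA and 6.12, 6.21 and 7.68 in TPA, at least 126-fold lower (adjusted p 1.18e-06), and CycB1-1 4785, 4699.9 and 5204 and 48.6, 72.8 and 35.6 (log2 fold change -6.61 ± 0.79, adjusted p 0.000114). CDKB2-1, the CDK of the G2 to M transition in plants, fell from 739 ± 46.2 to 19.4 ± 11.1, and KRP6, a CDK inhibitor, from 373 ± 9.44 to 5.61 ± 0.761. CDKA-1, the CDK of the whole cell cycle, fell less, from 1256 ± 63.6 to 355 ± 29.5.

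The 6 rises were CDKF-4, CDKF-3, KIN7J, KIN14L, CYCD5-2 and CYCL1-1. CDKF-4, of a family of CDK-activating kinases, gave 1023, 1144 and 1105 in MA and 9702, 11599 and 13349.9 in TPA (log2 fold change 3.39 ± 0.15, adjusted p 1.07e-07), and the kinesin KIN7J rose from 136 ± 7.2 to 2201 ± 591. Of 6 histone genes 5 were lower and 1 was not called. CenH3, the histone H3 of centromeres, fell from 825 ± 13.3 to 21.4 ± 13.9, and H2B.5 from 11989.5 ± 692 to 2451 ± 951, while H2B.11 gave 4548 ± 199.6 and 4908 ± 523 without a call.

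Most ribosomal proteins and translation factors fell. Of 32 measured 25 were lower, 1 higher and 6 not called, at a median log2 fold change of -2.34, and their summed signal dropped from 294137 to 297670 in MA to 59645 to 82973 in TPA. RPL9 gave 16109, 17051 and 15644 in MA and 1612, 2072 and 1373 in TPA (log2 fold change -3.29 ± 0.13, adjusted p 6.05e-08). The elongation factor EF-1-alpha, which delivers aminoacyl-tRNA to the ribosome, fell from 20173 ± 253 to 5118 ± 475, and EF-1-beta, its exchange factor, from 17926 ± 625 to 2182 ± 149. Some initiation factors differed. The helicase eIF-4A-1 fell from 10472 ± 193 to 1949 ± 86.8, while eIF-4A-3, of the same family, rose from 2042 ± 48.5 to 5158 ± 727 (log2 fold change 1.33 ± 0.12, adjusted p 1.54e-05). The cap-binding factor eIF-4E-1 gave 3458 ± 47.8 and 2832 ± 331, and the scaffold eIF-4G 1104 ± 46.6 and 1308 ± 119, neither of them called.

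Argonautes, dicers and RNA-dependent RNA polymerases, the enzymes of small RNA pathways, counted 14 lower, none higher and 5 not called of 19 (median log2 fold change -2.50). AGO3 gave 1007, 922 and 847 in MA and 12.1, 15.3 and 5.67 in TPA (-6.51 ± 0.45, adjusted p 2.76e-06), and its mean was 9.59 in PMA and 64.2 in SCP. AGO18, a grass argonaute, fell from 1233 ± 31.1 to 24.6 ± 12.7, and PNH1, the argonaute of meristem maintenance, from 671 ± 53 to 9.81 ± 2.99, under the background level. DCL4, the dicer that makes trans-acting small interfering RNAs, and SHL2, an RNA-dependent RNA polymerase, fell from 391 to 19.8 and from 243 to 9.23. AGO2 (1122 and 968) and DCL2A (1884 and 2627) were above background in both stages and were not called.

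The medians of the meiosis, tapetum, sporopollenin, replication, cyclin, histone, translation and argonaute groups stayed below 0 under quantile normalization and with arrays at a common median. Under the latter they were -1.35, -3.01, -6.77, -1.91, -1.52, -1.13, -1.69 and -1.85 in that order. Setting all levels under 10 to 10 gave medians of -1.94, -3.62, -7.27, -2.53, -1.87, -1.71, -2.33 and -2.13.

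**Figure D3:**
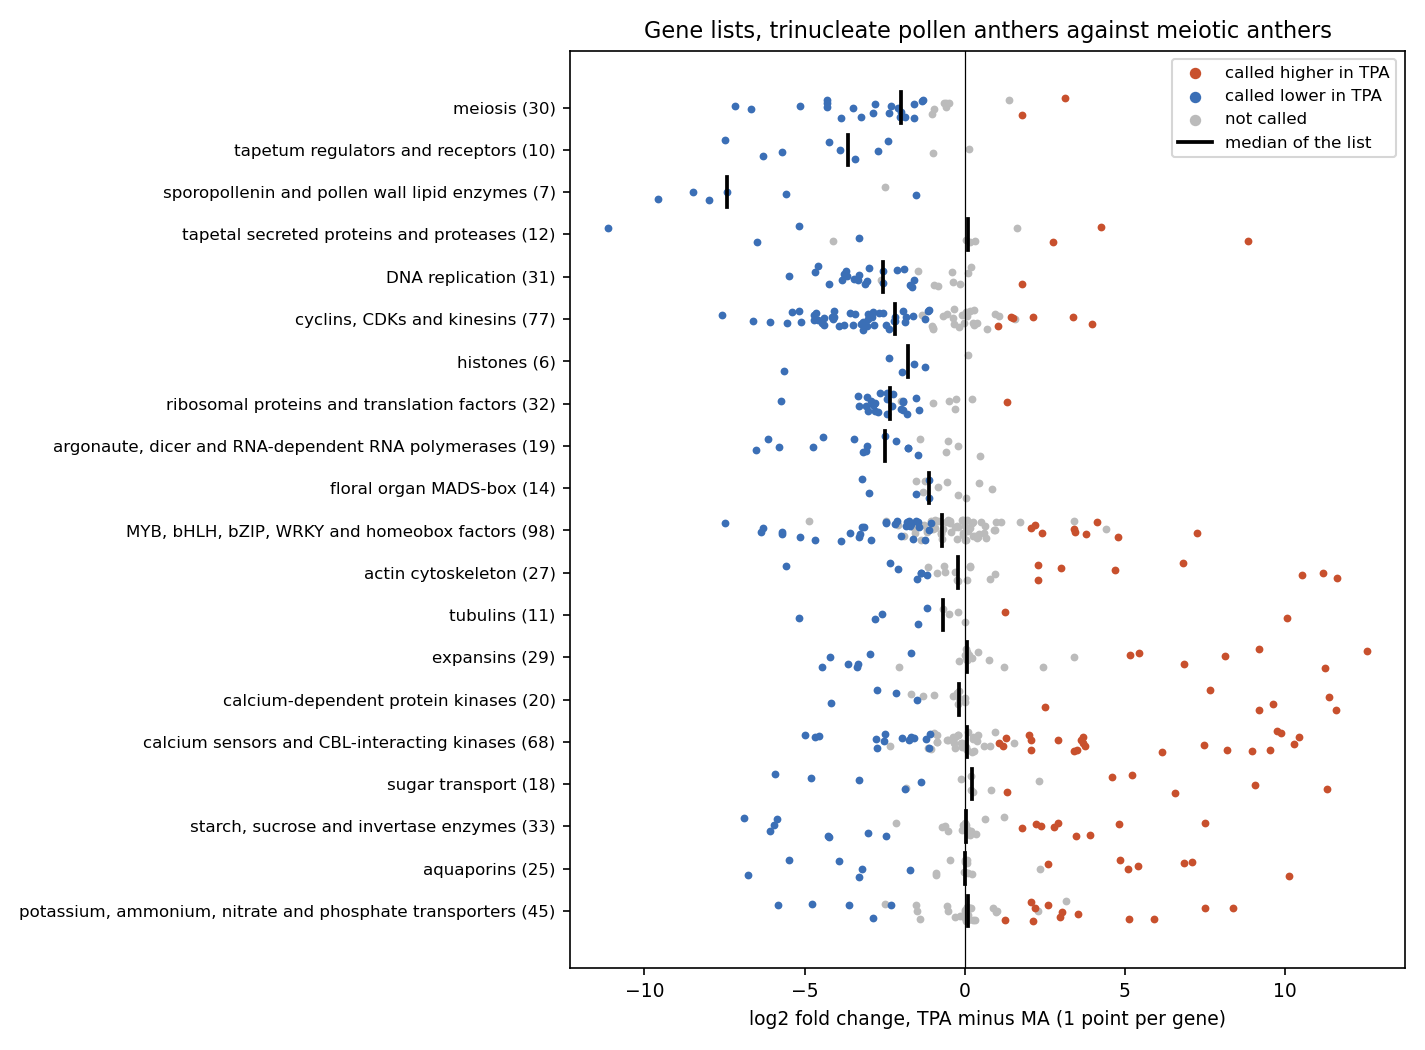
Log2 fold change, TPA minus MA (x axis), of each measured gene in 20 gene lists (y axis, number of genes in parentheses), with called rises in red, called falls in blue, genes without a call in grey and the list median as a black bar. The medians of the sporopollenin (-7.42) and tapetum (-3.66) groups lay farthest left, and lists such as the expansins (0.08) and calcium-dependent protein kinases (-0.19) had medians near 0 with single genes at both extremes.

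In families linked to pollen tube growth a few members rose from the floor to high levels while others fell. Of 20 calcium-dependent protein kinases (CPKs), which link calcium to phosphorylation, 6 were higher, 4 lower and 10 not called. CPK2 gave 5.57, 6.28 and 5.59 in MA and 17216, 16970.3 and 19730.4 in TPA, at least 1793-fold higher (adjusted p 3.48e-14). CPK29 gave 4.67, 4.7 and 4.95 in MA and 10596, 12259.6 and 16026 in TPA, at least 1277-fold higher (adjusted p 4.69e-12). In both genes the MA arrays did not leave the floor. CPK21 and CPK6 likewise rose from the floor to 4992 ± 1568 and 3009.9 ± 162, and CPK22 from 73.2 ± 9.98 to 14571 ± 1226. The 4 falls were CPK24 (1835 to 111), CPK18 (621 to 99.3), CPK13 (5555 to 1346) and CPK20 (983 to 375), the last of which lost its call without any 1 of the MA arrays (adjusted p 0.00965 to 0.0125).

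The summed signal of the 20 CPKs was 15256 to 15781 in MA and 54051 to 70201 in TPA, although their median log2 fold change was -0.19, and 0.46 with arrays at a common median. Among 68 other calcium sensors, pumps and CBL-interacting kinases (CIPKs) 22 were higher, 14 lower and 32 not called (median 0.06). CIPK30 and CIPK20 rose from means of 4.05 and 5.12 to 5635 ± 923 and 4789 ± 289, and CIPK5 from 84.5 ± 12.5 to 14895 ± 2204. The calmodulin-like proteins CML28 and CML32 rose to 6413 ± 129 and 8147 ± 209, and the calcium pump ACA1 from 4.08 to 3484 ± 403. In the other direction CIPK14 fell from 7148 ± 143 to 1230.5 ± 825, and the calcium exchanger CAX3 from 2022 ± 86.5 to 373 ± 142.

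**Figure D4:**
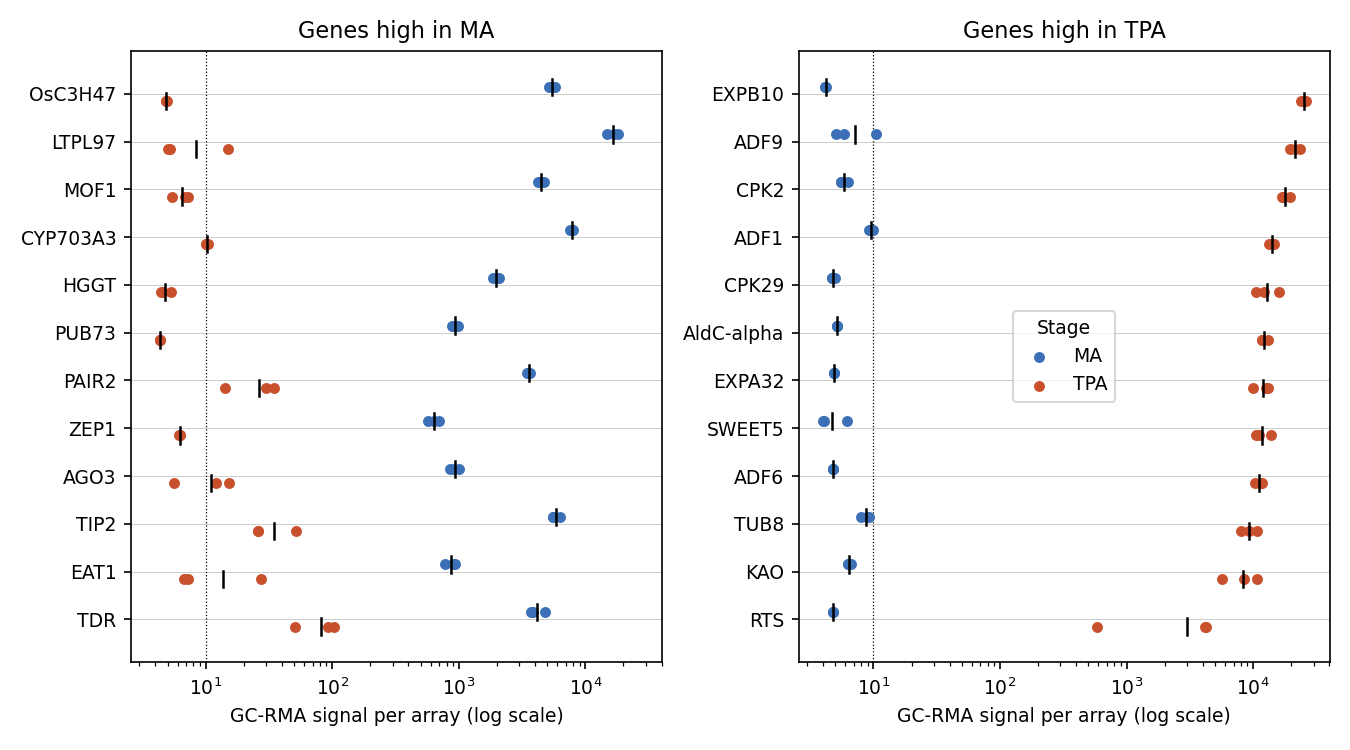
GC-RMA signal on each array (x axis, log scale) of 12 genes high in MA and 12 high in TPA (y axis), MA arrays in blue, TPA arrays in red and stage means as black bars, with the dotted line at 10. All genes shown were called, and no called probe set had overlapping arrays, so the separation of the stages followed from the choice. The spread within TPA was wide for RTS (587 to 4240.4).

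Among 27 genes of the actin cytoskeleton 8 were higher, 7 lower and 12 not called. Among the rises were 4 actin-depolymerizing factors (ADFs), which sever and turn over filaments in the growing tube. ADF9 gave 5.1, 10.4 and 5.85 in MA and 21353, 19431 and 23541 in TPA, and ADF6 4.76, 4.77 and 4.77 and 11805, 10351 and 11458, at least 2138-fold and 1119-fold higher (adjusted p 3.72e-10 and 2.5e-15). ADF1 rose from 9.56 ± 0.4 to 14045 ± 675, and ADF10 from 36.3 ± 5.02 to 319 ± 159, a call that was lost without any 1 of the arrays other than TPA replicate 3 (adjusted p 0.00777 to 0.0107). ADF2 and ADF5 were above background in both stages without a call (4763 and 3903, 637 and 718), and ADF4 fell from 7587 ± 316 to 3359.8 ± 225.

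Villins, which bundle actin filaments, also divided, with VLN4 rising from 94.6 ± 9.88 to 10627 ± 487, VLN2 from 2642 ± 66.8 to 12768 ± 193, and VLN1 falling from 52.9 to 12.5. The formin FH13, a nucleator of filaments, fell from 453 ± 12.7 to below background at 9.77 ± 3.07, and FH11 rose from 10.5 to 321. ACT1 gave 16458, 16743 and 16499 in MA and 31292, 32300.1 and 31636 in TPA, a difference under the fold limit (log2 fold change 0.94 ± 0.04, adjusted p 5.15e-08). The number of falls was 4 in place of 7 without MA replicate 1, MA replicate 3 or TPA replicate 1, and VLN1 was among those lost (adjusted p 0.00743 to 0.00935). The median log2 fold change of the 27 genes was -0.20 as deposited and 0.45 with arrays at a common median.

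The tubulins, the subunits of microtubules, counted 5 lower, 2 higher and 4 not called of 11. TUB8, a beta-tubulin, gave 8.04, 8.96 and 9.19 in MA and 7955, 9318 and 10739 in TPA, at least 927-fold higher (adjusted p 2.54e-10). TUB2, another beta-tubulin, went the opposite way from 2386 ± 68.2 to 92.9 ± 75.8. The tubulins thus held members that moved in opposite directions.

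Expansins, which loosen cell walls, counted 7 higher, 7 lower and 15 not called of 29, and their summed signal was 8114 to 8630 in MA and 62788 to 74400 in TPA. EXPB10, a beta-expansin of the class that includes grass pollen allergens, gave 4.18, 4.17 and 4.19 in MA and 25977, 23984 and 25428 in TPA, at least 2512-fold higher (adjusted p 4.33e-17). EXPB9 rose from 69.7 ± 13.6 to 19076 ± 1383, and EXPA32 from 4.89 ± 0.0112 to 11869 ± 1666. EXPA26 and EXPB2 also rose from the floor, to 4202 ± 736 and 719 ± 392. The falls were those of EXPB7, EXPA5, EXPA6, EXPA10, EXPB17, EXPA7 and EXPA16, of which EXPA7 went from 2435 ± 235 to 351 ± 201 and EXPA10 from 1425 ± 28.4 to 142 ± 33.6. EXPB4 stayed at 2452 ± 56.3 and 2961 ± 976 without a call.

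Cell wall synthases and pectin-related enzymes showed 12 falls (33.3%), 7 rises (19.4%) and 17 without a call among 36. Of 17905 genes with 1 probe set each, 6022 were lower and 2650 higher. The cellulose synthases CESA6, CESA5 and CESA1 fell from 1665 to 107, from 825 to 130.4 and from 3082 to 799.5, while CESA3 rose from 1291 ± 19.2 to 3043 ± 213. CSLD5, a cellulose synthase-like gene of the D group, which acts in tip-growing cells, rose from 6.1 ± 0.0234 to 3578 ± 198, at least 357-fold, and CSLC9 from 761 ± 22.5 to 5089.6 ± 686. The list median was -0.51, and 0.15 with arrays at a common median.

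Carriers of sugars rose and fell within the same families. Of 18 measured 6 were higher, 5 lower and 7 not called. SWEET11, a sucrose exporter, gave 22609.9, 23489.8 and 24914 in MA and 3031, 106 and 1904 in TPA (log2 fold change -4.80 ± 1.03, adjusted p 0.00463). Its TPA arrays spread widely, and the call was lost without any 1 of the MA arrays or without TPA replicate 3 (adjusted p 0.00552 to 0.017), each of which left 3 falls in the list in place of 5. SWEET5, of another clade of the family, gave 6.15, 4.03 and 3.99 in MA and 10519, 11048 and 13939 in TPA, at least 1174-fold higher (adjusted p 3.74e-10). MST3, a monosaccharide transporter, fell from 803 ± 66.7 to 15.9 ± 11.7, while its relative MST5 rose from 5.59 ± 0.014 to 3249 ± 1443. SUT1, the sucrose transporter that rice pollen needs for its function, rose from 18.7 ± 10.6 to 731 ± 400.4, and SWEET15 from 19.4 ± 3.31 to 1869.9 ± 434.

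Starch and sucrose enzymes counted 9 higher, 8 lower and 16 not called of 33. GBSS1, the granule-bound starch synthase (Waxy) that makes amylose, gave 61.6, 67.9 and 39 in MA and 11498, 15189.6 and 5382 in TPA (log2 fold change 7.49 ± 0.79, adjusted p 4.94e-05). DPE1 and DPE2, disproportionating enzymes of plastid and cytosol that rework glucans, rose from 129 ± 4.11 to 3596 ± 28.6 and from 815 ± 41.7 to 12281 ± 506, and the branching enzyme SBE from 675 ± 23.9 to 3528 ± 358. The soluble synthases SSII-3 and SSII-1 fell instead, from 1147 ± 51.6 to 61 ± 12.6 and from 229 ± 20.9 to 13.1 ± 5.69.

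Enzymes that cleave sucrose moved in both directions. CIN4, a cell wall invertase, fell from 782 ± 11 to 11.6 ± 0.189, and SUS1, a sucrose synthase, from 2360.4 ± 36.1 to 59 ± 46.9, while NIN3 and NIN1, neutral invertases, rose from 597 ± 6.67 to 6582 ± 199 and from 461 ± 19.5 to 1708 ± 806. The amylases AMY1.3 and AMY1.2 fell from 730.5 and 296 to below background. SUS2, another sucrose synthase, was not called, since its TPA arrays gave 5730.1, 1456 and 10582 against 1742, 1979 and 1949 in MA (adjusted p 0.118). Without TPA replicate 2 it passed as higher (log2 fold change 2.04, adjusted p 0.00085).

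Aquaporins, channels for water and small solutes, numbered 7 higher, 6 lower and 12 not called of 25. PIP2;6, of the plasma membrane, gave 12554, 11448 and 11566 in MA and 191, 189 and 34.9 in TPA (log2 fold change -6.78 ± 0.56, adjusted p 9.41e-06). TIP1;2, of the vacuolar membrane, gave 5.99, 5.99 and 6.83 in MA and 7969.9, 7607 and 5472 in TPA, at least 692-fold higher (adjusted p 6.65e-10). Members of 1 subfamily also differed, as SIP1;1 fell from 10101 ± 452 to 1088 ± 71.2 and SIP2;1 rose from 20.3 ± 1.34 to 3058 ± 1473. PIP1;1, PIP1;2 and TIP2;2 had means over 5000 in both stages and were not called.

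Of 45 transporters of potassium, ammonium, nitrate and phosphate, 12 were higher, 5 lower and 28 not called. Potassium carriers of the HAK family made up most of the rises, among them HAK26 (5.43 to 1945), HAK20 (5.19 to 1035), HAK18 (248 to 2994) and HAK17 (331 to 3063). HAK13 fell from 446 ± 93.9 to 7.66 ± 0.0625 and HAK12 from 335 ± 16.2 to 32.6 ± 23.7.

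Genes of gibberellin and auxin moved in both directions. CPS1, which makes ent-copalyl diphosphate in the entry step of gibberellin synthesis, gave 20.4, 19.2 and 20.4 in MA and 5758, 6539 and 5997 in TPA (log2 fold change 8.25 ± 0.52, adjusted p 1.42e-06). The next enzyme, ent-kaurene synthase (ks1), rose from 167 ± 23.9 to 843 ± 80.7, ent-kaurenoic acid oxidase (KAO) from 6.43 ± 0.207 to 8309 ± 2538, and GA20OX3, of the late steps, from 216 ± 40.1 to 2153 ± 1274. The call of GA20OX3 was lost by a small margin without MA replicate 1 or 2 (adjusted p 0.00519 and 0.00532). KAO was at least 804-fold higher (adjusted p 4.62e-06), with all MA arrays at the floor. CYP714D1, which deactivates gibberellins by epoxidation, rose as well, from 6.29 ± 1.44 to 742 ± 232.

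Of 16 auxin response factors, a family counted after its values were seen, 11 were lower, 1 higher and 4 not called. ARF1, ARF9 and ARF17 fell from 10536 ± 266 to 432 ± 112, from 1845 ± 102 to 92.3 ± 78.8 and from 599.6 ± 65.9 to 26.5 ± 9.9. The rise was that of 1 of 2 genes annotated ARF10, from 6.4 to 13.8, just under 2-fold without MA replicate 1 (log2 fold change 0.98), while the other fell from 829 to 122. Of the GH3 family, enzymes that couple auxin to amino acids, GH3-8 and GH3.2 rose from 1461 ± 105 to 12311 ± 977 and from 8.42 ± 2.68 to 2929 ± 89.4, and GH3.7 fell from 245 to 24.6. The whole list of 68 hormone genes held 13 higher, 20 lower and 35 without a call, which became 22 higher and 14 lower with arrays at a common median, so no direction can be given for the list as a whole.

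Transcription factors of several families fell more often than they rose, as did genes in general as deposited. With 1 probe set per gene, 6022 of 17905 genes were lower and 2650 higher. Of 98 MYB, bHLH, bZIP, WRKY, heat shock and homeobox factors 31 were lower, 9 higher and 58 not called (median log2 fold change -0.72), and with arrays at a common median 22 were lower and 20 higher. MOF1, a MYB factor of spikelet development, gave 4395, 4239 and 4721 in MA and 7.22, 5.43 and 6.9 in TPA, at least 445-fold lower (adjusted p 9.79e-07). HOX12, a homeodomain-leucine zipper factor of panicle development, fell from 7462 ± 691 to 147 ± 125, and BZIP39 from 5184 ± 119 to 358 ± 54.9. BZIP02 and Hox22 rose from 16.2 ± 4.43 to 2491 ± 744 and from 41.6 ± 2.52 to 930.1 ± 613.

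Of 58 zinc finger genes of the CCCH, C2H2 and DOF types 22 were lower and 10 higher, beside more falls than rises among all genes. OsC3H47, a CCCH protein, gave 5802, 5450.5 and 5171 in MA and 4.84, 4.96 and 4.88 in TPA, at least 547-fold lower (adjusted p 1.84e-05). It was at 11 ± 5.88 in PMA and 90.8 ± 125 in SCP, a scatter that enters its p. OsC3H63 rose from 799 ± 58 to 6151 ± 371. NAC010 rose from 4.94 ± 0.324 to 909 ± 333 in a family of NAC and AP2/ERF factors of which 16 of 20 were not called.

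Of 14 MADS-box genes of floral organ identity 5 were lower (35.7%), none higher and 9 not called, with a median log2 fold change of -1.13. The share of falls was near that of all genes, 6022 lower of 17905 with 1 probe set each. MADS16, a B-class gene of lodicules and stamens, fell from 17238 ± 457 to 8041 ± 1852, MADS8, an E-class gene, from 10172 ± 66.9 to 4732 ± 1053, and MADS13, an ovule identity gene, from 51.9 to below background at 5.66, while the B-class MADS2 gave 10988 ± 25.5 and 11572 ± 2963. The C-class genes MADS3 (939.8 and 1749) and MADS58 (2708 and 1183) were not called. Without TPA replicate 2 the counts of the list became 3 lower and 1 higher, with MADS8 and MADS16 just under 2-fold (-0.98 and -0.94) and MADS3 higher (1.13). Without TPA replicate 3 they became 8 lower and none higher, MADS58 among them (-1.54). With arrays at a common median 2 were lower and 2 higher. Outside this group MADS27 rose from 5.42 ± 0.0244 to 1325 ± 331, at least 129.9-fold.

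Heat shock proteins counted 8 lower (29.6%), none higher and 19 not called of 27, beside 6022 lower of 17905 genes with 1 probe set each. HSP26.2, a small heat shock protein of mitochondria, gave 9955, 9370.1 and 9741 in MA and 10.5, 6.19 and 14.1 in TPA (log2 fold change -9.96 ± 0.60, adjusted p 1.08e-06). The HSP90 genes HSP81-1, HSP81-2 and HSP81-3 and the endoplasmic reticulum chaperone BIP1 fell from 9466, 16403, 23889 and 9061 to 2419, 2467, 2848 and 1601. The median of the list was -0.41, and 0.24 with arrays at a common median.

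Among the other named genes that were over 20 in MA and under 10 in TPA, HGGT, homogentisate geranylgeranyl transferase of tocotrienol synthesis, gave 1866, 2064 and 1963 in MA and 4.56, 5.36 and 4.47 in TPA. LOX1.1, a lipoxygenase, fell from 1361 ± 94.3 to 6.21 ± 1.12, the beta-glucosidase BGLU8 from 1448 ± 60.8 to 9.57 ± 3.68, the chitinase-like xylanase inhibitor Chib3H-a from 1689.7 ± 129.5 to 8.56 ± 0.984, and GRF6, a growth-regulating factor, from 1055 ± 33.5 to 8.77 ± 4.54. PUB73, a U-box ubiquitin ligase, gave 989.8, 953 and 879.8 in MA and 4.37, 4.38 and 4.38 in TPA, at least 94-fold lower (adjusted p 0.000131). These are genes of unrelated functions that shared a TPA mean under 10.

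Some pairs of near relatives moved in opposite directions among the largest changes. Of the phytosulfokine precursors, which yield a small growth peptide, PSK5 fell from 5336 ± 139 to 67.2 ± 70.2 and PSK4 rose from 20.5 ± 4.84 to 3976 ± 2129. Of the protein phosphatases 2C, OsPP2C21 fell from 4294 ± 314 to 37.7 ± 7 and OsPP2C59 rose from 12.3 ± 4.05 to 6488 ± 183. Among named genes the largest rises with both means over 10 were those of NifU1, a scaffold of iron-sulfur clusters (17.1, 14.1 and 12.9 in MA and 15928, 18239.8 and 26771 in TPA), osysl7, of the yellow stripe-like metal transporters (21, 21.6 and 16.8 and 16615, 20754 and 20266), and the thioredoxin OsTrx20 (11.4, 11.4 and 12.4 and 7919.7, 10153 and 11450.3). AldC-alpha, a cytosolic aldolase of glycolysis, rose from the floor (5.17) to 12199 ± 681. The cytosolic glutamine synthetase GLN1-3 fell from 5397 ± 1030.1 to 19.6 ± 4.07.

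The sperm lineage is represented by HAP2A, a gamete fusion gene, and by lists of homologues. HAP2A gave 51.9, 52.8 and 57.2 in MA and 273, 289 and 297 in TPA (log2 fold change 2.41 ± 0.24, adjusted p 3.11e-05). Its means of 35.7 ± 13.6 in PMA and 21.6 ± 4.38 in SCP were above background too, so its signal was not confined to TPA. GEX2 and DUO1, also planned as sperm markers, are not given here. Of 338 probe sets homologous to transcripts of maize sperm 56 were higher (16.6%) and 97 lower (28.7%), with a median of -0.29. Of 241 homologous to those of lily generative cells 28 were higher (11.6%) and 100 lower (41.5%), with a median of -0.75. Over all rice probe sets, most of them at the floor, 8.26% were higher and 15.7% lower, so both shares were larger in these lists. Both lists were drawn from other species.

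In the part held here of a functional classification, 986 probe sets that had been selected for change over these same arrays, 228 were higher and 554 lower. Translation was nearly wholly lower (69 of 73, 1 higher), RNA metabolism had 32 lower and 2 higher of 39, and the cell cycle 13 lower and 2 higher of 17. Signal transduction divided more evenly with 20 higher and 30 lower of 67, and secondary metabolism had 8 higher and 5 lower of 20. Since the entries were selected on these samples, the counts describe them and are no independent evidence.

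Photosynthesis genes were examined as markers of green tissue, although their source in these samples was not tested. The summed signal of 17 photosynthesis genes was 7361 to 7868 in MA and 5401, 3079 and 2504 in TPA replicates 1, 2 and 3. Of these genes 4 were lower (23.5%) and 13 not called, beside 6022 lower of 17905 genes with 1 probe set each. CAB2R, a chlorophyll-binding protein, gave 1059, 1129 and 1106 in MA and 959, 49.8 and 383 in TPA. The TPA arrays therefore differed among themselves for CAB2R, as they did for YAB1 (206, 9.21 and 17.3 against 542, 484 and 548 in MA) and the desiccation protein LEA19 (1848, 4699 and 18 against 62, 77.1 and 77.4), and these carried no call. YAB1 passed as lower without TPA replicate 1 (adjusted p 2.58e-05), and LEA19 as higher without TPA replicate 3 (adjusted p 9.27e-05). Of 6860 probe sets that were lower in TPA yet still above 10 there, TPA replicate 1 held the lowest value in 20.5%, replicate 2 in 41.0% and replicate 3 in 38.5%. The part of such transcripts in the falls was not tested.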

How the data were processed

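The authors hybridized biotin-labelled RNA to the Affymetrix rice array, scanned it with GCOS software and normalized the arrays by GC-RMA in a project that also held other tissues. The deposited numbers are linear intensity values after GC-RMA, called signal here. Since GC-RMA includes quantile normalization, the scaling already fixed by the authors affects every fold. Sequencing depth does not apply, and 3 arrays a stage limit the precision. The replicates were bulked anthers of several plants per the study, and the columns of other samples numbered 0.

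The 123 AFFX controls among 57381 probe sets were excluded, while 64 reporter probe sets stayed among those called rice probe sets. Log2 signals entered limma 3.58.1 in R 4.3.3 (lmFit and eBayes, 12 arrays, 8 residual degrees of freedom), and TPA was tested against MA with Benjamini-Hochberg adjustment over 57258 rice probe sets. Calls needed an adjusted p of 0.005 or less and 2-fold. The fit was also run on simulated data built from the MA levels and the spread of these arrays. In them all stages had the same spread, unlike the MA and TPA arrays here. Levels are means of linear values. A log2 fold change is the TPA minus the MA mean of log2 signals, with its SE. The SE and p rest on 1 spread shared by the 4 stages. They can thus reflect scatter in PMA or SCP, as for OsC3H47 and PUB73 (34.8 ± 50.9 in SCP). Where a stage mean was at or under 10, the fold is a lower bound, the geometric mean of the brighter stage over 10. Tables were handled with Python 3.11.15 and pandas 2.3.3.

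The reference annotation pairs 22436 rice probe sets with 1 gene (3195 of them named), 95 with several genes, and does not list 34727. Further loci came from the study's supplements. A gene was measured by the probe set that the study pairs with it, otherwise by its brightest one. For the called genes NifU1, OsTrx20, GBSS1, SBE, SSII-3, AMY1.3, CDKA-1, KRP6, eIF-4A-1, CPK6, CPK18, EXPA7, GH3.7, AGO18, ABCG36, HSP81-3 and OsC3H63 at least 1 other probe set of the gene was not called. The members and gene lists were chosen with earlier results of these data known. Named genes were those brightest in 1 stage and at or under 10 in the other, those with the largest rises and falls, up to 6 of each list by size of change with all members called against it, genes the study names and marker genes. Genes given beyond these were taken from the lists after their values were seen. Lists were described by counts and medians, without a test of the list. A listed gene family is not reported here. No sequence was printed and promoter motifs were not analysed here. The alternatives, given at the end, changed the test, the threshold, the scaling, the filter on low values, the probe set per gene, the pairing of replicates and the arrays included.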

Additional observations from a re-analysis of the deposited data

How the results depend on the processing

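A limma fit of the MA and TPA arrays only called 3867 probe sets higher and 6947 lower. It called 414 of the 968 probe sets of named or listed genes. The equal-variance t-test with the same limits called 3346 probe sets higher and 5596 lower. With arrays at a common median 8686 were higher and 6557 lower, and the median log2 fold change of all probe sets became 0.68. Only probe sets over 10 gave a median of -0.47, and 1 probe set per gene gave 2650 higher, 6022 lower and a median of -0.32 over 17905 genes. Leaving out 1 array at a time gave 4295 to 5091 higher, 7890 to 8863 lower and a median of 0.02 to 0.03. The replicate numbers did not pair the arrays, since same-numbered MA and TPA arrays deviated from their stage means with correlations of 0.013, 0.00079 and 0.0055 over 20398 probe sets, and the fit with the replicate block called 4560 higher and 8448 lower. Of 968 probe sets of named or listed genes 509 were called. That count ranged from 364 by the t-test to 572 at an adjusted p of 0.05. No called gene changed direction under any setting run. Little else could result, since calls needed 2-fold and several settings left the fold unchanged. The common-median scaling shifted it by 0.65 on the log2 scale. Medians of the calcium-dependent protein kinases, actin genes, heat shock proteins, cell wall enzymes, zinc fingers, NAC and AP2/ERF factors, hormone genes, chitinases and glucanases, ABC transporters, ubiquitin ligases and proteases rose above 0 with arrays at a common median. Low signal sets a limit, since values under 10 lie at the floor and have no order. The promoter motif count planned at the outset was not run.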

Other observations

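A few listed groups were not described above. Their counts stand beside 6022 lower and 2650 higher of 17905 genes with 1 probe set each. Of 26 chitinases and glucanases 9 were lower (34.6%), 3 higher and 14 not called, and with arrays at a common median 9 were lower and 7 higher. The beta-glucanase GLU8 gave 500.5 in MA and 4.96 in TPA, while GLU15 gave 107 and 2126. Of 7 YABBY genes, transcription factors of lateral organ polarity, 3 were lower and none higher. Of 12 ABC transporters 3 were lower, among them ABCG37 (267 and 11.2) and ABCG36 (286 and 22), and 2 higher, which became 3 and 3 with arrays at a common median. Peroxidases and laccases counted 2 lower and none higher of 11, or 2 and 2 with arrays at a common median. The dehydrin and late embryogenesis abundant genes counted 1 higher and none lower of 8, Dhn1, at 3133 in MA and 11071 in TPA. The call of Dhn1 was lost when any 1 array other than TPA replicate 3 was left out, and without TPA replicate 3 the list had 3 higher. Its median log2 fold change was 0.65, or 2.13 without TPA replicate 3.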
